A study of Mus musculus with 3 samples.

Results

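The genes described here encode the enzymes and the chaperone that fold, hydroxylate and cross-link collagen. They are 10 of the 21887 protein-coding genes on the nuclear chromosomes of the mouse RefSeq annotation (GRCm38.p6, the build also called mm10). They were chosen by name, and every peak overlapping a gene's annotated span or the 20 kb on either side was taken. The peaks come from chromatin immunoprecipitation followed by sequencing (ChIP-seq) of 2 basic leucine zipper transcription factors, ATF4 and CEBPG. The cells were wild-type C57BL/6 mouse embryonic fibroblasts, primary cells isolated at E13.5, passaged, plated for 24 hours and then held for 3 hours in amino acid deprived medium. Both libraries therefore share the deprivation, and no library from fed cells was analysed here. There was 1 library per antibody. One used an ATF4 antibody (Santa Cruz C-20), the other a laboratory-made antiserum against the C-terminus of CEBPG, and a GFP antibody library of the same cells was not analysed here. Peak lists hold no expression values, so the fibroblast identity of the cells could not be checked against markers.

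Collagen chains are synthesised into the endoplasmic reticulum, where prolyl and lysyl residues are hydroxylated before the chains wind into a triple helix. Prolyl hydroxylation stabilises the helix, and lysyl hydroxylation prepares sites for glycosylation and cross-links. After secretion, lysyl oxidases convert lysyl and hydroxylysyl residues to aldehydes that form the cross-links between molecules. Fibroblasts are a major source of fibrillar collagen. ATF4 is the main transcriptional effector of amino acid deprivation, and CEBPG is a C/EBP family protein that can pair with it.

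Both factors had a strong, overlapping pair of peaks about 7 kb upstream of Serpinh1, the gene of the collagen chaperone. Beyond Serpinh1 there were 8 CEBPG peaks, with a median score of 49.9 beside 47.24 for the whole CEBPG list, and 1 ATF4 peak, near Loxl1. Of the 10 genes, 7 had a CEBPG peak in the window (43.7% of all protein-coding genes had one), 2 had an ATF4 peak (7.44% of all genes), and 1, Serpinh1, had a pair in which both overlapped by at least 1 bp (1.78% of all genes). In all there were 11 CEBPG peaks and 2 ATF4 peaks, and each lay nearer to its collagen-modifying gene than to any other protein-coding gene. With each peak counted only for its nearest gene, the numbers of genes thus stayed at 7, 2 and 1. The shares of all protein-coding genes counted that way were 31.7% for CEBPG, 5.51% for ATF4 and 1.2% for a pair. P4ha3, Plod1 and Plod3 had no peak in either list. The genes were chosen with earlier results of these data in view, so these counts are a description and carry no test.

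No peak lay on a promoter that could be examined. RefSeq promoter windows, 250 bases before to 50 bases after a transcription start, matched 6 of the 10 genes (Serpinh1, P4ha1, P4ha2, P4ha3, Plod1 and Plod3), and 0 of the 6 windows were overlapped by a peak of either list. Few promoter windows were: of all 32851 in the table, 1.25% were overlapped by a CEBPG peak and 0.146% by an ATF4 peak. Each window was searched on both strands for 4 motifs: the C/EBP-ATF response element TGATGNAA (found in 3.97% of the 32851 windows), the cyclic AMP response element TGACGTCA (1.79%), the C/EBP site TTGCNNAA (10.8%) and the AP-1 site TGANTCA (7.81%). None of the 6 windows held any of these. Partial sites were searched as well, a choice made after the full motifs gave no match. TGATG, the ATF part of TGATGNAA and also found inside it, lay in the windows of Plod1, Plod3 and P4ha3 (39.3% of all windows), while TGACG (20.8%) and GCAAT (26.4%) lay in that of P4ha2. Below are the 250 bases before the start of 2 of the genes, from RefSeq (GRCm38.p6), 5′ to 3′ on the gene's own strand. Serpinh1 (chr7:99353240-99353489, minus strand) is shown because its peaks lie upstream of this stretch and not on it, and P4ha2 (chr11:54100674-54100923, plus strand) because it alone of the 6 holds 2 different partial sites. Capitals mark matches to any motif searched, and the Serpinh1 stretch has none.
Serpinh1: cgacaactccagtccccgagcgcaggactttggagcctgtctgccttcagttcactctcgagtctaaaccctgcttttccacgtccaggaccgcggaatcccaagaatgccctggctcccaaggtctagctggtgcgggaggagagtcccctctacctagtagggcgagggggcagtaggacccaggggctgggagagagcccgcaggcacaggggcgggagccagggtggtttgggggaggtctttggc
P4ha2: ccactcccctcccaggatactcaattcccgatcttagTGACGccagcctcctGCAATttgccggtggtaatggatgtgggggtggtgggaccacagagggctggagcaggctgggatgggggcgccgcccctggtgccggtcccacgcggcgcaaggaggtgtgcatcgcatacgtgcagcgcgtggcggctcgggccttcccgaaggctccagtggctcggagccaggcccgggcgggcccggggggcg
In P4ha2, TGACG began 213 bases before the start and GCAAT 198 bases before it, and the window held a second TGACG, beginning at base 42 from the start, that is not printed. A match is a description of the letters and not evidence of binding, and the sequence under the peaks themselves was not used here.

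Serpinh1 encodes an endoplasmic reticulum chaperone that binds folded procollagen. The gene is short (7.87 kb, chr7:99345375-99353239) and on the minus strand. Its CEBPG peak at chr7:99359839-99360625 had the deposited score 3205.56, among the 42 of 25419 CEBPG peaks that scored 3100 or more, and its ATF4 peak at chr7:99360169-99360522 had the score 142.05, rank 79 of 2642. The score is the authors' own value for each peak, read from the end of its name. Its scale is not stated, both lists begin at about 40, and scores of different lists are not compared with each other. The CEBPG scores look capped, since 38 peaks share the value 3100 and 4 lie above it, so the order of peaks at or above 3100 is not read as an order of strength. The CEBPG peak covered 6600 to 7386 bp upstream of the transcription start and the ATF4 peak 6930 to 7283 bp upstream. The ATF4 peak thus lay wholly within the CEBPG peak, as in 333 of the 404 overlapping pairs of the series (82.4%). It covered 45% of the CEBPG peak's 787 bp, where the CEBPG list's median width was 131 bp. That median is over peaks of all scores, 60.2% of them under 50, and the widths of other peaks at 3100 or more were not compared. The centres of the ATF4 and CEBPG peaks were 113.5 bp apart, farther than the median of 44 bp over all pairs. In 64 pairs (15.8%) they were more than 100 bp apart.

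**Figure D1:**
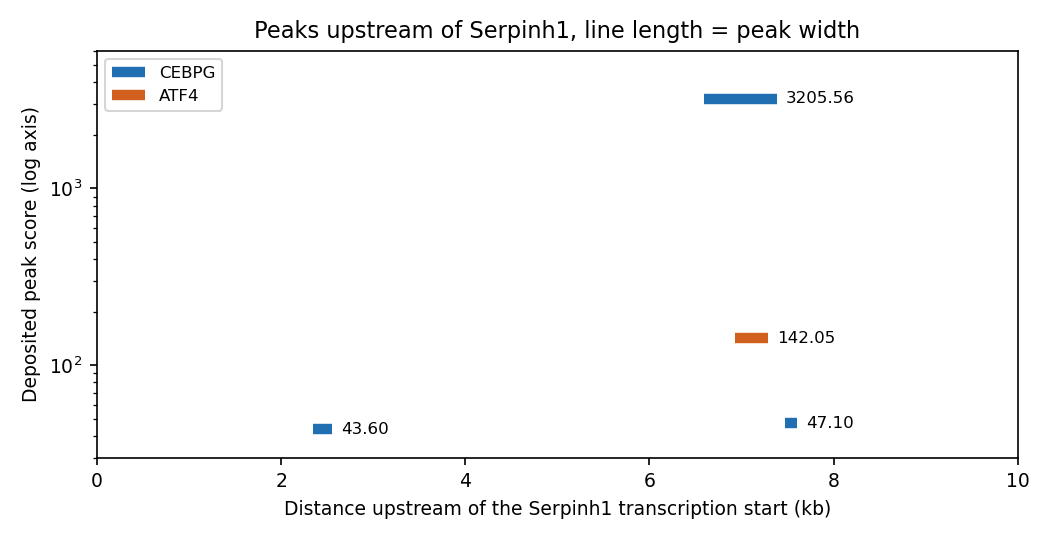
Peaks upstream of Serpinh1. The x axis is the distance upstream of the transcription start in kb, the y axis the deposited score on a log scale, and each line spans the width of 1 peak (blue CEBPG, orange ATF4). The ATF4 peak of 142.05 lies under the CEBPG peak of 3205.56, and the CEBPG peaks of 43.60 and 47.10 lie on either side.

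A pair of weaker CEBPG peaks lay on the same upstream side. The first, with a score of 43.6, was centred 2.45 kb from the start. The other, with a score of 47.1, began 86 bp beyond the far edge of the strong peak and was centred at 7.54 kb. Neither overlapped an ATF4 peak, and both scored at or below the CEBPG list's median of 47.24. No peak of either list lay inside the Serpinh1 span or within 20 kb downstream of it. The nearest other protein-coding genes to the strong CEBPG peak were Gdpd5 at 21.2 kb and Map6 at 23.1 kb. A score alone does not assign the site to a gene.

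By ATF4 score the Serpinh1 pair placed 66th among the 404 overlapping pairs. Its score of 142.05 was above the median of all pairs (64.79). Of the 42 CEBPG peaks with scores of 3100 or more, 40 carried an ATF4 peak, with ATF4 scores from 41.61 to 841.75 and a median of 163.72. The Serpinh1 value was 26th of these 40, so among the CEBPG peaks at this apparent ceiling its ATF4 score was below the median. A pair with a CEBPG score of 1000 or more lay in the window of 0.832% of all protein-coding genes, and Serpinh1 was the 1 gene of the 10 that had one. The cutoff of 1000 was not among the planned score minimums of 50 and 100, and the Serpinh1 scores were known.

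**Figure D2:**
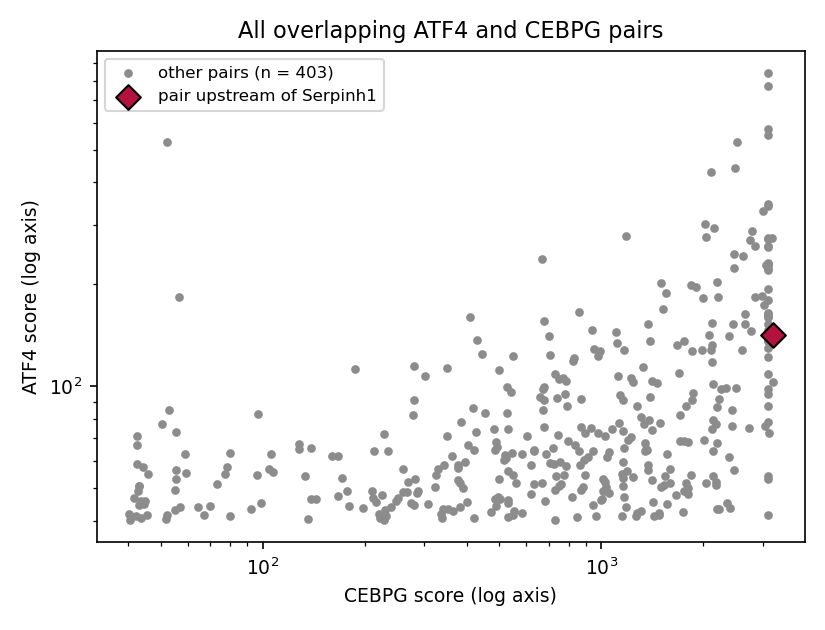
ATF4 score against CEBPG score, both on log axes, for the 404 overlapping pairs of the series, with the pair upstream of Serpinh1 as a red diamond. The diamond sits at the right edge, among CEBPG scores of 3100 or more, at a middle height among the ATF4 scores there.

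P4ha1, P4ha2 and P4ha3 encode the catalytic alpha subunits of prolyl 4-hydroxylase, which hydroxylates collagen prolines. P4ha2 had the second-highest CEBPG score of the 10 genes, 193.54, rank 1713 of the list and 445 bp wide, at chr11:54149704-54150148. This peak was centred 18.26 kb downstream of the gene, close to the limit of the window, and no ATF4 peak lay within 592.6 kb of the gene. P4ha1 had a CEBPG peak of 42.8, rank 18820 of 25419, inside the gene and 4.16 kb from its downstream end (chr10:59369081-59369200). Its nearest ATF4 peak was 191.4 kb away. At P4ha3 the nearest CEBPG peak, of score 48.44, was 58.5 kb from the gene, and the nearest ATF4 peak, of score 41, was 321.3 kb away. The alpha subunits thus had 2 CEBPG peaks in all, 1 of them above a score of 100, and neither lay at a promoter window.

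Plod1, Plod2 and Plod3 encode lysyl hydroxylases. The enzyme from Plod2 acts on the telopeptides that take part in cross-links, and that from Plod3 also transfers sugars to hydroxylysine. Of the 3 genes, Plod2 alone had a peak, a CEBPG peak of 77.86 (rank 3715) at chr9:92621800-92622042, 13.49 kb past the gene on its higher-coordinate side. The strand of Plod2 was not in the promoter table, so upstream and downstream are not named. Plod1 had its nearest CEBPG peak, of score 102.31, at 41 kb, where it lay 0.1 kb from another gene, Miip. Plod3 had its nearest CEBPG peak, of score 44.46, at 55.6 kb. The nearest ATF4 peaks of the Plod genes lay 219.1 kb from Plod2, 273.6 kb from Plod1 and 724.2 kb from Plod3.

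Lox, Loxl1 and Loxl2 encode lysyl oxidases. The product of Lox cross-links fibrillar collagen and elastin, that of Loxl1 is known for elastic fibres, and that of Loxl2 for basement membrane collagen. Lox had 3 CEBPG peaks inside its 13.81 kb span, with scores of 48.31, 51.56 and 42.23 in order of coordinate. They lay within 2.06 kb, with gaps of 291 bp and 1343 bp, and none carried an ATF4 peak. Having 3 or more CEBPG peaks inside the span was shared with 5.25% of all protein-coding genes, and having 3 or more in the wider window, as Lox and Serpinh1 did, with 8.81%. Outside the window, CEBPG peaks of 112.77 and 90.67 lay 28.9 and 31.1 kb beyond the higher-coordinate end, with Lox as the nearest protein-coding gene. Both scored above the 3 peaks inside it. The nearest ATF4 peak was 951.7 kb away, the greatest such distance of the 10 genes.

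Loxl1 was the other gene with an ATF4 peak. That peak, at chr9:58280798-58280958, scored 41.05, rank 2348 of 2642, and lay 6.84 kb beyond the lower-coordinate end of the gene. A CEBPG peak of 54.06 (chr9:58277201-58277339) lay on the same side at 10.45 kb, and the centres of the 2 peaks were 3.61 kb apart, without overlap. Loxl2, the longest of the genes at 87.14 kb, had a CEBPG peak of 47.7 (rank 12281, chr14:69664337-69664442) inside the gene, 31.44 kb from the nearer end. Its nearest ATF4 peak was 630.2 kb away.

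**Figure D3:**
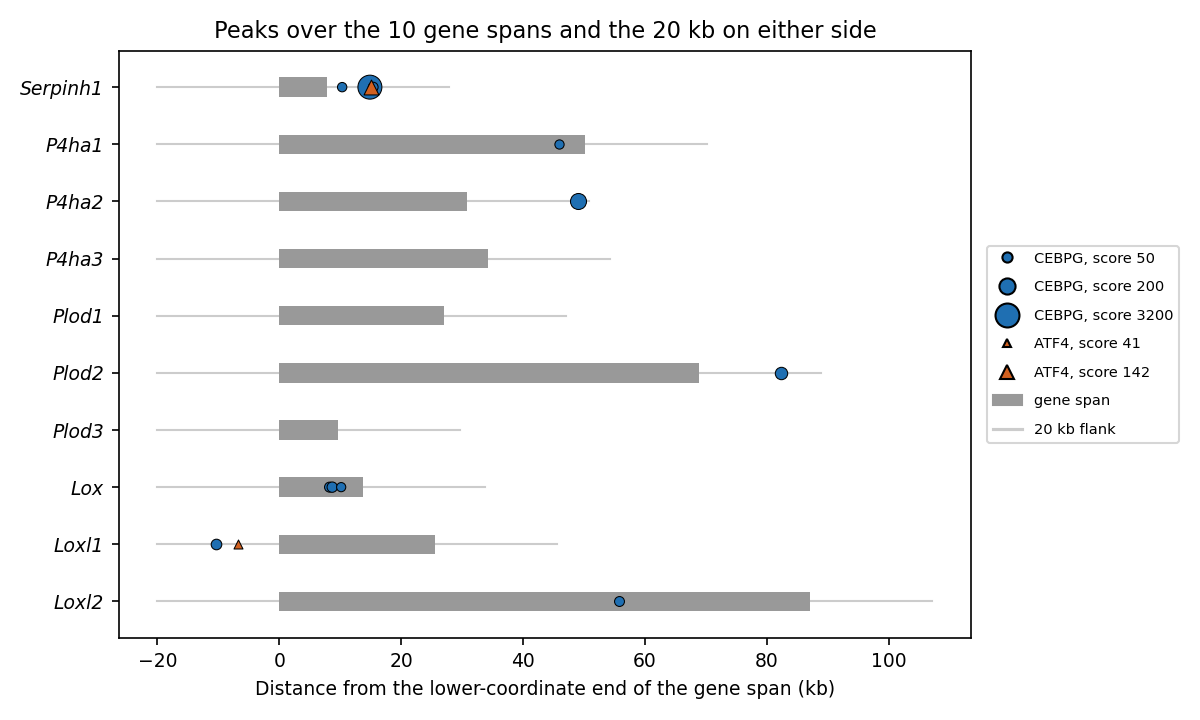
Positions of all 13 peaks over the 10 genes. Each row is a gene, the x axis is the distance in kb from the lower-coordinate end of its span (grey bar, with the 20 kb flanks as a thin line), circles are CEBPG peaks, triangles ATF4 peaks, and the marker size grows with the log of the score. The large marker is the CEBPG peak of 3205.56 at Serpinh1, and P4ha3, Plod1 and Plod3 are empty.

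Apart from those of Serpinh1, the 8 CEBPG peaks had scores from 42.23 to 193.54, and 4 of them were under 50, a class that held 60.2% of the whole CEBPG list. Their widths ran from 106 to 445 bp with a median of 133 bp, beside 131 bp for the list. Of the 8, 5 lay inside a gene, 3 lay outside, and 0 overlapped an ATF4 peak, where 1.58% of the whole CEBPG list did. At scores of 100 or more, 2 of the 10 genes kept a CEBPG peak (Serpinh1 and P4ha2, against 10.9% of all genes) and 1 an ATF4 peak (Serpinh1, against 0.635%). At scores of 50 or more the numbers were 5 (24.9% of all genes) and 1 (2.86%). The 8 genes with no ATF4 peak in the window had their nearest one 191.4 to 951.7 kb from the gene, with a median of 457 kb.

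**Figure D4:**
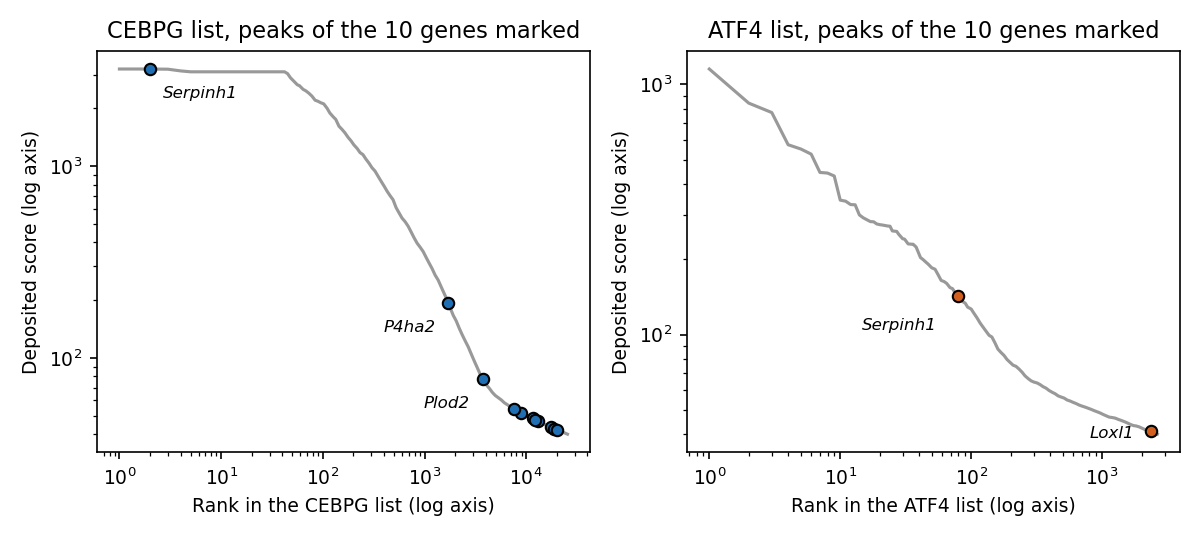
Deposited score against rank on log axes for the whole CEBPG list (left) and ATF4 list (right), in grey, with the peaks of the 10 genes as points. Serpinh1 is near the top of the CEBPG list and at rank 79 of the ATF4 list, while most of the remaining points sit in the flat tail of low scores.

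The windows of these genes were somewhat longer than usual, since the median span was 28.88 kb against 17.17 kb for all protein-coding genes. Among the 12184 genes with spans between 7.87 and 87.14 kb, the range of the 10, the shares with a peak were 44% for CEBPG and 5.88% for ATF4, and 1.72% had a pair. Per Mb of joined windows there were 14.6 CEBPG peaks at the 10 genes and 9.96 at all protein-coding genes. The former rests on 11 peaks, of which Lox and Serpinh1 had 3 each. For ATF4 the densities were 2.65 and 0.98 per Mb, the former from only 2 peaks. The gene counts depended on the window. A CEBPG peak inside the span was found at 3 genes (P4ha1, Lox and Loxl2, against 23.4% of all genes), and within 5 kb at 4, as Serpinh1 joined them (29.9%). No ATF4 peak lay inside a span or within 5 kb, where 3.94% and 4.94% of all genes had one. Likewise 0 of the 10 had a pair inside the span (0.804% of all genes) or within 5 kb (1.13%). Within 50 kb, 8 had a CEBPG peak (62.5% of all genes), 2 an ATF4 peak (12.0%) and 1 a pair (2.95%). Serpinh1 also had its pair when centres had to lie within 250 bp (1.8% of all genes), and no gene of the 10 had one where each peak had to be overlapped over at least 50% of its length (0.886%).

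**Figure D5:**
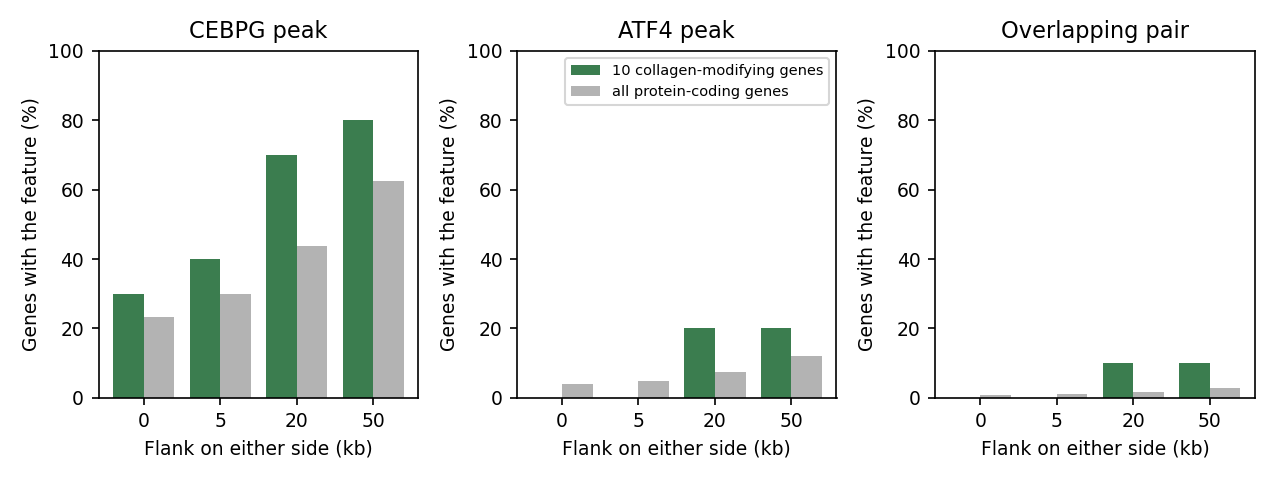
Percent of genes with a CEBPG peak, an ATF4 peak or an overlapping pair, for the 10 genes (green) and all protein-coding genes (grey), by the flank added on either side of the span in kb. For CEBPG the bars rise from 30% to 80% for the 10 genes and from 23.4% to 62.5% for all genes, and for ATF4 and pairs the 10 genes are at 0 up to 5 kb.

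The rest of the collagen pathway was described with a list of 28 further genes for folding, modification, export and processing. Of these, 14 had a CEBPG peak in the window (50%, beside 43.7% of all genes), 3 an ATF4 peak (10.7%, beside 7.44%) and 0 an overlapping pair. These shares were not matched for span. Some of the 28 genes were long, up to 209.83 kb at Adamts3, against a median of 17.17 kb for all protein-coding genes. The 29 gene-and-peak combinations of the pathway genes for CEBPG had a median score of 48.17, and 2 reached 100. Genes with such a peak in the window made up 7.14% of the 28, below the 10.9% of all protein-coding genes. The 2 peaks were at Tll1, a tolloid-like procollagen proteinase gene (242.51, inside the gene), and at Loxl4, another lysyl oxidase gene (145.55, 19.14 kb upstream). Next came Adamts2, the procollagen N-proteinase gene (98.01), and Sparc, a collagen-binding matricellular protein gene (70.93). Adamts3, a related proteinase gene, followed with 59.48. Sec23a, a component of the vesicle coat that exports procollagen, had 58.4, from a peak nearer to Gemin2, at 0.0 kb from that gene. The 3 ATF4 peaks lay on both sides of the ATF4 list's median of 45.88, and the highest ranked 814 of 2642. They scored 50.4 inside Mia2 (an export receptor gene), 43.33 upstream of Colgalt1 (a collagen galactosyltransferase gene) and 40.97 upstream of Pcolce2 (a procollagen proteinase enhancer gene). The peak upstream of Colgalt1 was nearer to Niban3, at 0.0 kb from that gene. P4hb, the beta subunit that pairs with the P4ha products, had no peak in the window, nor did P3h1, Crtap and Ppib, which form the prolyl 3-hydroxylase complex.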

How the data were processed

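Peaks were called by the authors from single-end reads of 36 bp, each library on its own lane, per the labels' protocols. MACS 1.4.2, BWA, HOMER and Trimmomatic are listed with mm10, without settings, per the submitters' processing notes. The use of the GFP library as a background for calling is not stated there. Each deposited file lists peak positions and, in the peak name, the authors' score, read as the number that ends it. The deposited positions are start and end in bp, printed 1-based. The files hold no read counts, so depth is unknown and no interval or floor is given.

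Gene spans came from RefSeq (GRCm38.p6). A peak was assigned to each gene whose span, extended by 20 kb on either side, it overlapped, and a pair needed 1 bp of overlap. Strand was known only where the promoter table held the gene. The counting was tested on simulated peaks. With 1 library per antibody, no test was made and no value carries an error between cultures. The genes, the pathway list, the motifs and the rules were chosen with earlier results of these data known. Named genes were all 10, any protein-coding gene nearer to one of their peaks, and of the 28 pathway genes those with an ATF4 peak and the 6 with the highest CEBPG scores; P4hb, P3h1, Crtap, Ppib and Creb3l1 were named after their values were seen, as were Gdpd5, Map6 and Miip, neighbours of single peaks, and Gemin2 and Niban3, which lie nearer to a peak than the pathway gene does. Alternatives changed the window, score minimum, overlap and assignment. Python 3.11.15, pandas 2.3.3, numpy 2.4.6 and matplotlib 3.10.9 were used.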

Additional observations from a re-analysis of the deposited data

How the results depend on the processing

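Of 26 alternatives to the counts of genes, peaks and pairs, 13 left the count within 1.5 times its reported value and 13 did not. Genes with a CEBPG peak (7) fell to 3 with the gene span alone, to 4 within 5 kb and to 2 at scores of 100 or more. Genes with an ATF4 peak (2) fell to 0 with the span alone and within 5 kb, and to 1 at scores of 50 or more and of 100 or more. Genes with an overlapping pair (1, Serpinh1) fell to 0 with the span alone, within 5 kb, and where each peak had to be overlapped over at least 50% of its length, since the ATF4 peak covers 45% of the CEBPG peak. With centres within 250 bp the count stayed at 1. Within 5 kb the numbers of CEBPG peaks, ATF4 peaks and pairs were 6, 0 and 0, against 11, 2 and 1. The distance of the Serpinh1 pair, about 7 kb, sets its loss in the narrower windows. Partial motif sites, the shares among genes of similar span and the share with 3 or more peaks were added after seeing the data. The cutoff of 1000 for the CEBPG score of a pair was likewise not planned. No paired analysis was possible because each antibody had 1 library. Depth is unknown, so a gene without a listed peak is one with no peak at the deposited threshold, and weak binding there was not measured.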

Other observations

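Creb3l1, whose product is a membrane-bound transcription factor known to activate collagen genes, was on the list of 28 pathway genes and had no peak within 20 kb. Overlapping peaks, scoring 3100 for CEBPG and 160.25 for ATF4, lay 31.5 kb from it, with Creb3l1 as the nearest protein-coding gene. This pair was singled out after its values were seen. Within 50 kb, 1 of the 28 pathway genes (3.57%) had an overlapping pair, beside 2.95% of all protein-coding genes.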
